A study of Homo sapiens with 4 samples.

Results

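The miR-103 and miR-107 family comprised 3 of the 1474 mature miRNAs listed in at least 1 of the 4 small RNA libraries, namely hsa-miR-103a-3p, hsa-miR-103b and hsa-miR-107. The family was chosen by the counts of miR-103a-3p and miR-103b in RKO and RKO-R, which had traded places between these libraries, so every value of the members in this pair is given as a description, without a test. All 3 members were listed in all 4 libraries. Small RNA was sequenced from HCT116 and RKO, which are established human colorectal cancer cell lines, and from HCT116-R and RKO-R, the acquired radioresistant line derived from each. The radioresistant lines had received repeated doses of 4 Gy up to a total of 40 Gy and were then kept for at least 3 weeks without irradiation. Each line was 1 library, so no difference between lines had a replicate check. Library totals lay between 6818497 and 7140460 counts, so 3 counts, taken as the floor of detection, corresponded to 0.420 to 0.440 CPM, which is the count scaled to a common library total of 1000000. Of 8 miRNAs that mark epithelial and intestinal cells, 7 or 8 were listed in each library. Their summed level was 58544 to 62978 CPM in the HCT116 lines and 10096 to 11703 CPM in the RKO lines. Much of this gap lay in miR-200c-3p, with 291469 counts in HCT116 and 649 in RKO. miR-141-3p and miR-429 were also lower in the RKO lines, whereas miR-192-5p, with 1542 counts in HCT116 and 1574 in RKO, was not. miR-215-5p, an intestinal marker, was listed in HCT116-R alone, with 3 counts. The summed level of 5 miRNAs of blood cells was 5.79 to 41.3 CPM. In HCT116-R and RKO-R, some other miRNAs that lie on opposite strands of 1 locus also differed from the parental library in how counts were divided between their names. Their shares are given beside those of the family.

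A mature miRNA guides the silencing complex to messenger RNAs that pair with its seed, the bases near its 5′ end. The hairpins of miR-103a and miR-107 are transcribed from introns of PANK genes, which encode pantothenate kinases of coenzyme A synthesis, and both miRNAs are known for roles in metabolism, the cell cycle and tumour growth. The hairpins named miR-103b are annotated on the opposite DNA strand of the miR-103a hairpins, so miR-103b would come from an antisense transcript and would have different targets.

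The mature sequences of RefSeq (GRCh38.p14) are printed 5′ to 3′ because the division of reads among the members rests on them, and capitals mark the seed, bases 2 to 8.
hsa-miR-103a-3p: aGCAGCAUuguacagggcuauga
hsa-miR-107: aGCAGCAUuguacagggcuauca
hsa-miR-103b: uCAUAGCCcuguacaaugcugcu
miR-103a-3p and miR-107 shared the seed GCAGCAU, which no other of the 2370 mature names of RefSeq held, and they differed by a single base, G22C, counted from 1 at the 5′ end of miR-103a-3p. Their seed pairs with AUGCUGC in a messenger RNA. miR-103b alone held the seed CAUAGCC, which pairs with GGCUAUG. Over all 23 bases, miR-103a-3p and miR-103b were exact reverse complements. Base 22 of miR-103a-3p, at which miR-107 differs, lies opposite base 2 of miR-103b. The complementary run of miR-107 with miR-103b was therefore 21 bases long, shown here in capitals within miR-107.
hsa-miR-107, run complementary to hsa-miR-103b: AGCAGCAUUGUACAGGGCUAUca

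On GRCh38.p14, the MIR103A1 hairpin lies at chr5:168560896-168560973 on the minus strand, within an intron of PANK3, and MIR103B1 lies inside it at chr5:168560904-168560965 on the plus strand. The mature miR-103a-3p and miR-103b of this locus both occupy chr5:168560904-168560926, on opposite strands. MIR103A2 lies at chr20:3917494-3917571 on the plus strand, within an intron of PANK2, with MIR103B2 at chr20:3917502-3917563 on the minus strand. Both mature miRNAs of that locus lie at chr20:3917541-3917563. MIR107 lies at chr10:89592747-89592827 on the minus strand, within an intron of PANK1, and its mature miRNA occupies chr10:89592756-89592778. Among listed miRNAs with a RefSeq sequence, only miR-103b had a complementary run of at least 15 bases with miR-107, and its hairpins lie at the other loci. No hairpin of the family overlapped an exon of its host gene. Since miR-103a-3p and miR-103b each have the same mature sequence at both of their loci, the counts do not tell the loci on chromosomes 5 and 20 apart. How the counting used strand is not given in the sources used here, so the counts of miR-103a-3p and miR-103b are uncertain when taken singly, and their sum does not depend on how reads were divided between both names.

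Both names together were at similar levels in RKO and RKO-R, but the name that held the counts changed. miR-103b held most of the summed counts in HCT116, HCT116-R and RKO, and miR-103a-3p held most of them in RKO-R. The sum had 294 to 2874 counts for each count of miR-107.

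miR-103a-3p, the 3′ arm of the miR-103a hairpins, had 275 counts in HCT116 against 90 in HCT116-R, and 1001 in RKO against 7928 in RKO-R. Its level was 40.3 CPM in HCT116 (95% Wilson interval 35.8 to 45.4), 13.2 CPM for HCT116-R (10.7 to 16.2), 140.2 CPM in RKO (132 to 149) and 1147 CPM for RKO-R (1122 to 1172). These intervals, and all others given here, cover counting error only. The order was HCT116-R, HCT116, RKO and RKO-R, and no neighbours in it overlapped within counting error. Among the miRNAs listed in each library, miR-103a-3p ranked 215th in HCT116 against 302nd in HCT116-R, and 134th in RKO against 60th in RKO-R.

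miR-103b, the antisense name, was counted 4701 times in HCT116 and 3552 times in HCT116-R, then 6939 times in RKO but only 695 times in RKO-R. It stood at 689 CPM in HCT116 (670 to 709), 521 CPM for HCT116-R (504 to 538), 972 CPM in RKO (949 to 995) and 100.5 CPM for RKO-R (93.3 to 108). RKO-R, the highest library for miR-103a-3p, was thus the lowest for miR-103b, and RKO was the highest. No intervals of miR-103b overlapped between libraries. The ranks of miR-103b were 77th, 84th, 65th and 141st in HCT116, HCT116-R, RKO and RKO-R, respectively.

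The sum of miR-103a-3p and miR-103b came to 4976 counts in HCT116 against 3642 in HCT116-R, and to 7940 in RKO against 8623 in RKO-R. Scaled by the library totals, this was 729 CPM, 534 CPM, 1112 CPM and 1247 CPM. The sum therefore spanned a much narrower range than either name alone, with HCT116-R the lowest library and RKO-R the highest. In these bulk libraries, fewer cells with a miRNA and less of it per cell cannot be told apart.

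miR-107, which shares the seed of miR-103a-3p, was rare, with 12 counts in HCT116 against 9 in HCT116-R, and 27 in RKO against 3 in RKO-R. Its level was 1.76 CPM in HCT116 (1.01 to 3.07), 1.32 CPM for HCT116-R (0.694 to 2.51), 3.78 CPM in RKO (2.60 to 5.50) and 0.434 CPM for RKO-R (0.148 to 1.28). RKO-R was at the floor of 3 counts. A read that ends before base 22 does not tell miR-107 from miR-103a-3p. How such reads were assigned is not given in the sources used here, so the counts of miR-107 are uncertain too. The interval of RKO lay above those of HCT116-R and RKO-R, and all other intervals overlapped.

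**Figure D1:**
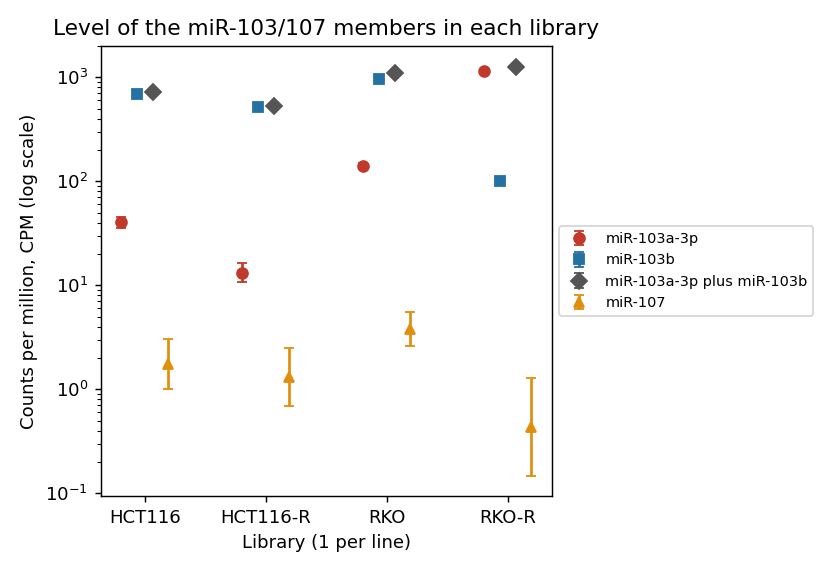
Level in CPM (log scale) of miR-103a-3p, miR-103b, their sum and miR-107 in the 1 library of each line. Bars are 95% Wilson intervals and cover counting error only. The sum stays between 534 and 1247 CPM, while miR-103a-3p runs from 13.2 to 1147 CPM and miR-103b from 100.5 to 972 CPM.

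The division of the sum between both names set RKO-R apart. miR-103b took 94.5% of the summed counts in HCT116 (95% Wilson interval 93.8 to 95.1), 97.5% in HCT116-R (97.0 to 98.0), 87.4% in RKO (86.6 to 88.1) and 8.06% in RKO-R (7.50 to 8.65). As ratios, there were 17.1, 39.5 and 6.93 counts of miR-103b for each count of miR-103a-3p in HCT116, HCT116-R and RKO, and 11.4 counts of miR-103a-3p for each count of miR-103b in RKO-R (exact binomial interval 10.6 to 12.3). The 3 libraries in which miR-103b predominated also differed from each other beyond counting error, with the highest share in HCT116-R and the lowest in RKO.

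**Figure D2:**
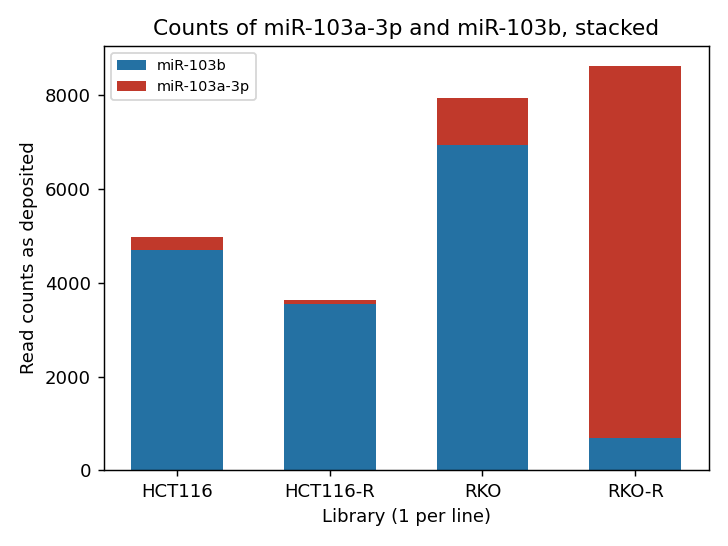
Deposited read counts of miR-103b and miR-103a-3p, stacked from 0, in the 1 library of each line. The total height is 7940 in RKO and 8623 in RKO-R, and the part held by miR-103b goes from 6939 to 695.

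In HCT116-R against HCT116, the comparison that the choice of the family did not use, miR-103a-3p was lower in the radioresistant library and neither miR-103b, the sum nor miR-107 passed the test. Here 1 of 3 members was called at an adjusted p under 0.05 by the exact test of edgeR, against 4.01% of the 1322 miRNAs tested. Many of these had few counts. With at least 10 counts required in a library of the pair, 62 of 639 miRNAs were called. Because no line had a replicate, the test used an assumed biological coefficient of variation (BCV) of 0.2, and its p-values compare these libraries, not the conditions. The level of miR-103a-3p was 3.05-fold lower in HCT116-R (counting interval 2.40 to 3.92), and the edgeR exact test gave an adjusted p of 0.0104 at a log2 fold change of -1.63 (SE 0.44, which follows from the assumed BCV). This call was lost at a BCV of 0.4, with an adjusted p of 1 in the same edgeR exact test. The only BCV estimated from these data was higher still, at 0.495, in a fit of all 4 libraries with lineage as a block. miR-103b was 1.32-fold lower in HCT116-R (1.27 to 1.38), a difference outside counting error whose log2 fold change of -0.43 (SE 0.41) gave an adjusted p of 0.948 by the edgeR exact test. The sum was 1.37-fold lower (1.31 to 1.43), and for its log2 fold change of -0.47 (SE 0.41) the same exact test gave an adjusted p of 0.895. For miR-107, with 12 and 9 counts, the adjusted p of the edgeR exact test was 1, at a log2 fold change of -0.43 (SE 0.76). By size alone, 1 of 3 members, again miR-103a-3p, passed a log2 fold change of 1, against 25% of the 639 miRNAs with at least 10 counts in a library of the pair.

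In RKO-R against RKO, on which the family was chosen, the level of miR-103a-3p was 8.18-fold higher in RKO-R (counting interval 7.66 to 8.75) and that of miR-103b was 9.67-fold lower (8.94 to 10.5). The log2 fold changes after TMM normalization were 3.27 and -3.04. The sum was 1.12-fold higher in RKO-R on library totals (1.09 to 1.16), and its log2 fold change was 0.40 with TMM and 0.17 without it, so its size depended on the scaling. The CPM of miR-107 in RKO-R was 0.115 times that in RKO (0.0223 to 0.373), from 27 and 3 counts. All 3 members were past a log2 fold change of 1, where 31% of the 539 miRNAs with at least 10 counts were past it, and nothing is read from this count because these values chose the family. The edgeR exact test called 5.54% of the 1155 miRNAs tested in this pair.

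**Figure D3:**
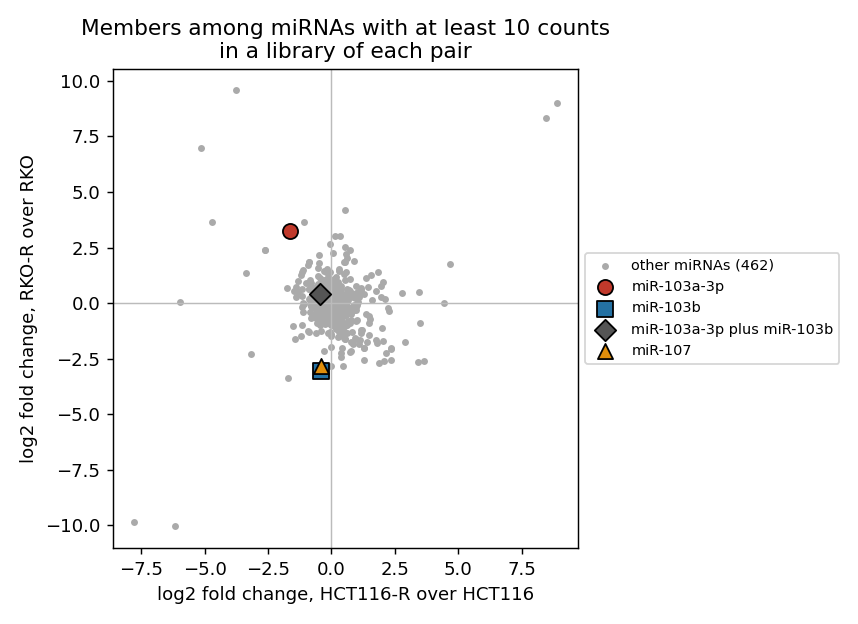
Log2 fold changes after TMM normalization, radioresistant over parental, for the HCT116 pair (horizontal) and the RKO pair (vertical). Grey points are the 462 other miRNAs that reached 10 counts in each pair. miR-103a-3p lies at -1.63 and 3.27, the sum at -0.47 and 0.40, miR-103b at -0.43 and -3.04, and miR-107 close to it at -0.43 and -2.84.

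The sum was higher in both RKO lines than in both HCT116 lines. Its CPM in RKO was 1.52 times that in HCT116 (1.47 to 1.58) and 2.08 times that in HCT116-R. In RKO-R it was 1.71 times the level in HCT116 and 2.34 times that in HCT116-R. miR-103b did not follow this order. miR-103b in RKO was 1.41 times its level in HCT116, whereas in RKO-R it was 0.146 times that level. miR-103a-3p was higher in both RKO lines, by wider margins than the sum, at 3.48 times the HCT116 level in RKO and 28.5 times in RKO-R. With 1 library of each line, no test of these differences was made.

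By point values, the ratio of miR-107 to miR-103b varied less across the libraries than its ratio to miR-103a-3p, with which it shares its seed. Per 100 counts of miR-103b there were 0.255 counts of miR-107 in HCT116 (exact binomial interval 0.132 to 0.446), 0.253 for HCT116-R (0.116 to 0.482), 0.389 in RKO (0.256 to 0.567) and 0.432 for RKO-R (0.0888 to 1.27), and all of these intervals overlapped. Per 100 counts of miR-103a-3p there were 4.36 in HCT116 (2.23 to 7.75), 10 for HCT116-R (4.43 to 19.8), 2.70 in RKO (1.77 to 3.95) and 0.0378 for RKO-R (0.00780 to 0.111). The value in RKO-R lay below the intervals of the other libraries. Against the sum, 1 count of miR-107 stood for 415 counts in HCT116 (237 to 803), 405 in HCT116-R (213 to 886), 294 in RKO (202 to 447) and 2874 in RKO-R (983 to 13941). The RKO-R values rest on 3 counts of miR-107, and the interval of 0.0888 to 1.27 is too wide to show a steady ratio to miR-103b. The counts of miR-103a-3p and miR-103b in RKO and RKO-R chose the family, so the contrast between both ratios in this pair is a description.

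**Figure D4:**
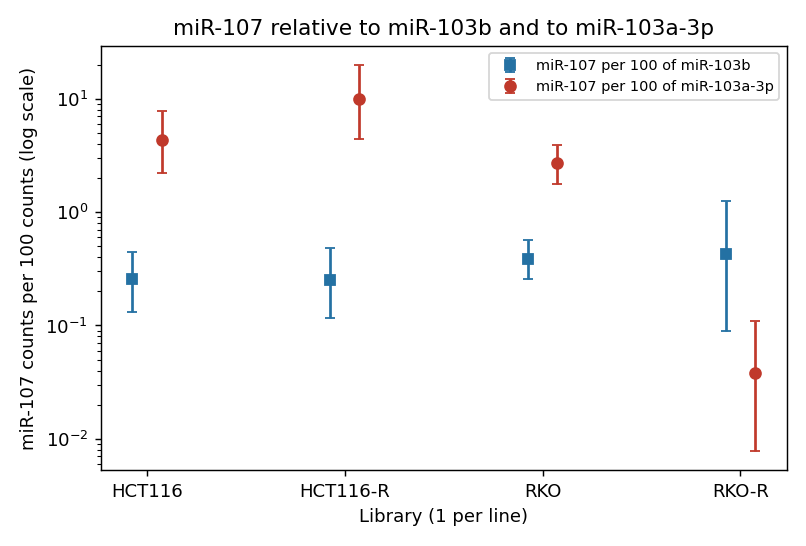
Counts of miR-107 per 100 counts of miR-103b or of miR-103a-3p (log scale) in each library, with exact binomial intervals for counting error. The ratio to miR-103b lies between 0.253 and 0.432 in all 4 libraries, and the ratio to miR-103a-3p goes from 2.70 in RKO to 0.0378 in RKO-R.

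The 5′ arms of the miR-103a hairpins, unlike the 3′ arms, differ between the loci by a single base. They are printed because that base separates the locus in PANK3, miR-103a-1, from the locus in PANK2, miR-103a-2, and capitals again mark the seed.
hsa-miR-103a-1-5p: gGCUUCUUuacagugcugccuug
hsa-miR-103a-2-5p: aGCUUCUUuacagugcugccuug
The substitution from the first to the second is G1A, counted from the 5′ end, so a read that lacks base 1 does not separate the loci. miR-103a-2-5p had 13 counts in HCT116 against 11 in HCT116-R, and 51 in RKO against 26 in RKO-R. For miR-103a-1-5p the counts were 1, 1, 5 and 5 in that order. The arm of the chromosome 20 locus thus held 92.9% of the 5′ arm counts in HCT116 (95% Wilson interval 68.5 to 98.7), 91.7% in HCT116-R (64.6 to 98.5), 91.1% in RKO (80.7 to 96.1) and 83.9% in RKO-R (67.4 to 92.9), with overlapping intervals. Per 100 counts of the sum of miR-103a-3p and miR-103b, both 5′ arms together reached 0.281 in HCT116 against 0.329 in HCT116-R, 0.705 in RKO (exact binomial interval 0.532 to 0.917) and 0.360 in RKO-R (0.244 to 0.511). The 5′ arms were therefore rare in all libraries. Where the counts of miR-103a-3p went from 1001 in RKO to 7928 in RKO-R, those of miR-103a-2-5p went from 51 to 26. Those of miR-103a-1-5p were 5 in RKO and 5 in RKO-R, and none of these differences was tested. In the HCT116 pair, the exact test of edgeR gave miR-103a-2-5p an adjusted p of 1, at a log2 fold change of -0.26 (SE 0.72).

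Other miRNAs annotated on opposite strands of 1 locus also changed their division between libraries. Among listed miRNAs, 24 such pairs had reverse-complementary runs of at least 15 bases, and 7 of them, miR-103a-3p with miR-103b included, reached 1000 summed counts in a library. The share under miR-3184-3p, antisense to miR-423-5p, was 0.183% in HCT116 against 99.3% in HCT116-R, and 0.443% in RKO against 99.9% in RKO-R. The share under miR-3529-3p, antisense to miR-7-5p, was 0.628%, 99.5%, 0.225% and 99.9% in the same order. Both switched in HCT116-R and in RKO-R, towards the second name. The miR-103 pair switched in RKO-R alone and the other way, towards its first name, miR-103a-3p. The sums of the miR-423-5p and miR-7-5p pairs were not always held. The sum of the miR-7-5p pair was 173007 counts in HCT116 against 526720 in HCT116-R, and 367857 in RKO against 346535 in RKO-R. For the miR-423-5p pair it was 20787, 13811, 11287 and 13345 in the same order. miR-374c-3p, antisense to miR-374b-5p, took 37.2% in HCT116 against 98.7% in HCT116-R, and 37.4% in RKO against 38.0% in RKO-R, so this pair switched in HCT116-R alone. The share of miR-3074-5p against miR-24-3p stayed between 25.2% and 32.4%, and that of miR-203b-5p against miR-203a-3p between 0.972% and 2.66%. Almost no counts were under miR-3184-5p, antisense to miR-423-3p, with at most 0.00105% of the pair in a library.

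Shifts were counted as the change in the log2 ratio of the second name to the first, with 0.5 added to each count. Opposite-strand pairs with at least 20 summed counts in both libraries numbered 13 in HCT116 and HCT116-R and 12 in RKO and RKO-R, but in some of them a name had so few reads that the 0.5 added set the shift. With at least 20 counts of each name also required in at least 1 of the libraries, a limit chosen after seeing the data, 7 pairs were left in either comparison. Of these, 5 shifted by at least 1 between HCT116 and HCT116-R, with miR-103a-3p and miR-103b the smallest of them at 1.20. Between RKO and RKO-R, 3 of the 7 shifted by at least 1 in size. These were the miR-103 pair at -6.30, towards the first name, and the pairs that hold miR-7-5p at 19.0 and miR-423-5p at 18.1. The miR-103 pair was chosen by its counts in RKO and RKO-R, so its place among these was fixed in advance. The part of the read assignment in these shifts was not tested.

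**Figure D5:**
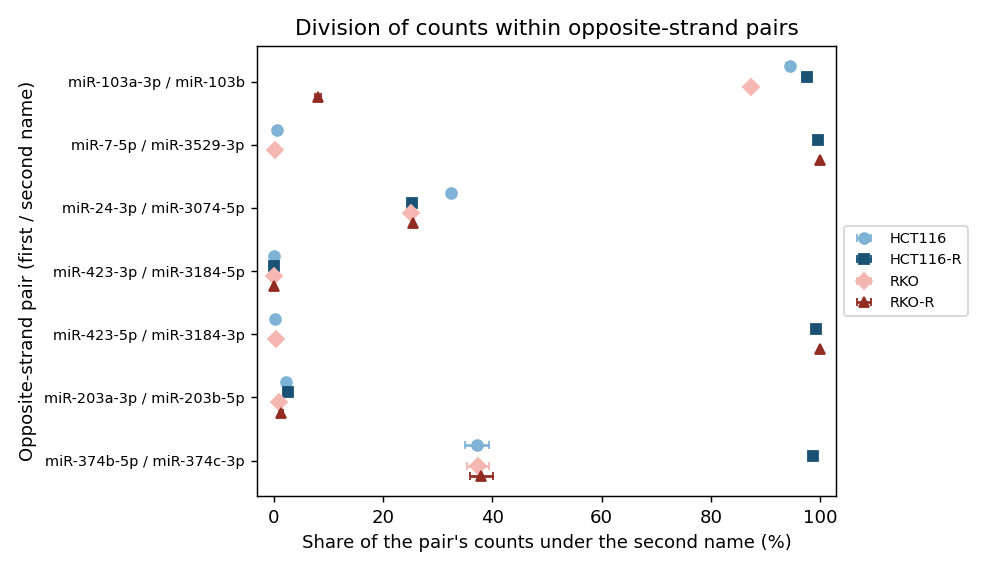
Share of the summed counts held by the second name (%) in the 7 opposite-strand pairs that reached 1000 counts, in the 1 library of each line, with 95% Wilson intervals. The miR-103 pair lies at 87.4% to 97.5% in 3 libraries and at 8.06% in RKO-R, and the miR-423-5p and miR-7-5p pairs lie near 0 in the parental and near 100% in the radioresistant libraries.

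The wider group of miR-15, miR-16 and miR-107 shares AGCAGC near the 5′ end with miR-103a-3p and miR-107, and miR-15 and miR-16 are known for repressing cell cycle genes. This run begins at base 1 in miR-103a-3p and miR-107 but at base 2 in all of the others on the list, so the seeds are offset by a base, as the leading member of the group shows beside miR-103a-3p.
hsa-miR-16-5p: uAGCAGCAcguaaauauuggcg
hsa-miR-103a-3p: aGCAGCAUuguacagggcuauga
Of the 9 other members of this group on the list, 8 were listed in the HCT116 pair and 7 had at least 10 counts there. The edgeR exact test called 0 of them higher and 1 lower in HCT116-R, where it called 4.01% of all miRNAs tested. The median log2 fold change of the 7 was -0.74, against 0.0017 over all miRNAs with at least 10 counts. The one called was miR-497-5p, with 386 counts in HCT116 against 141 in HCT116-R. Its adjusted p was 0.0233 in the edgeR exact test, at a log2 fold change of -1.47 (SE 0.43). miR-16-5p, the most abundant, went from 109428 to 63293 counts there, and at a log2 fold change of -0.81 (SE 0.41) the exact test of edgeR gave an adjusted p of 0.44. In the RKO pair, 6 were listed and 4 had at least 10 counts. Of the 6, 0 were called in either direction, where 5.54% of all miRNAs tested were called, and nothing is read from so few. The median log2 fold change of the 4 was 0.28, against -0.03 over all miRNAs with at least 10 counts. miR-16-5p had 168940 counts in RKO against 124934 in RKO-R, and miR-15b-5p had 12177 and 12998. In all 4 libraries miR-16-5p thus had more than 10 times the counts of the sum of miR-103a-3p and miR-103b.

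miRNAs with the pattern most like each member were named by distance over the 4 libraries. The distance was taken between log2(CPM + 1) values, each centred on its own mean. Candidates were the 165 miRNAs outside the family that reached 1000 counts in any library. The sum was closest to let-7d-5p (distance 0.13), miR-30b-5p (0.20) and miR-15b-5p (0.32), where the median candidate was at 1.30. miR-107 was closest to miR-744-5p (0.50), and miR-103b to miR-197-3p (1.23) and miR-615-3p (1.24). For miR-107, at 0.434 to 3.78 CPM, the 1 CPM added narrowed the differences between libraries, and nearest profiles without it were not sought. The closest to miR-103a-3p was miR-181d-5p at 2.58, where the median candidate was at 4.82. The median candidate was at 2.69 for miR-103b and at 1.52 for miR-107. The profiles of the members hold the RKO and RKO-R values that chose the family, so nothing is read from how far the candidates lay. These distances are descriptions over 4 libraries.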

How the data were processed

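The authors deposited, for each of the 4 cell lines, raw read counts per mature miRNA from small RNA of 18 to 30 nt. Bowtie2 and hg38 are named in the submitters' processing notes. The counter, the miRNA annotation release, the use of strand and the collapsing of unique molecular identifiers are not given in the sources used here. Names absent from a table counted as 0. No column of another sample was present (0). Levels are CPM of the library total, with 95% Wilson intervals for shares and exact binomial intervals for ratios. Within each pair of lines, counts were compared by the edgeR 4.0.16 exact test (R 4.3.3), with TMM normalization, a BCV fixed at 0.2, as in the study's methods, and Benjamini-Hochberg adjustment over all miRNAs with at least 1 count. For the sum, it replaced both names in that test. The procedure was tested on data simulated at the same BCV of 0.2, so that run does not check whether 0.2 holds for these libraries. RefSeq held mature sequences for 1313 of the 1474 listed miRNAs (89.1%). Overlap on opposite strands was read from GENCODE 29. Named were the members, the 5′ arms of their hairpins, the other miRNAs with AGCAGC near the 5′ end, opposite-strand pairs with at least 1000 counts and the nearest profiles. The members and lists were chosen with earlier results of these data known.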

Additional observations from a re-analysis of the deposited data

Results flagged for a closer look

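miR-103a-3p went in opposite directions in the pairs of lines, with a log2 fold change of -1.63 in HCT116-R against HCT116 and of 3.27 in RKO-R against RKO. The sum of miR-103a-3p and miR-103b also had opposite signs, at -0.47 between the HCT116 lines and 0.40 between the RKO lines. Each direction rests on 1 library of each line, the difference between the pairs was not tested, and the values of the RKO pair chose the family.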

How the results depend on the processing

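The assumed BCV set the number of calls. In the HCT116 pair, 53 miRNAs were called at a BCV of 0.2, 154 at 0.1 and 24 at 0.4, and in the RKO pair the counts were 64, 148 and 9. With at least 10 counts required, the calls were 62 of 639 and 88 of 539, and with antisense names summed there were 46 and 52 calls. Without TMM, the log2 fold changes of all miRNAs shifted by -0.24 in the RKO pair and by 0.02 in the HCT116 pair, and the split of the RKO calls went from 29 higher and 35 lower to 20 higher and 54 lower. Of 36 alternative log2 fold changes of the members and the sum, 32 kept their direction and side of the threshold, or their value within the counting interval. The call of miR-103a-3p in the HCT116 pair was lost at a BCV of 0.4, and its adjusted p from the edgeR exact test ran from 4.66e-08 to 1 over the alternatives. In the RKO pair without TMM, the values were 3.03 for miR-103a-3p, -3.27 for miR-103b and 0.17 for the sum. None changed sign among these 36. Without the limit on each name, 9 of 13 and 7 of 12 opposite-strand pairs shifted by at least 1, with the miR-103 pair counted in both. A fit of all 4 libraries with lineage as a block, added after seeing the data, left 1 residual degree of freedom and called 11 miRNAs (7 higher, 4 lower) in the radioresistant libraries by the edgeR quasi-likelihood test. The common BCV estimated in this fit was 0.495, above the 0.2 assumed within the pairs and above the alternative of 0.4. That estimate takes in any difference in change between the lineages. The log2 fold changes of this fit were averaged over both lineages and untested because the RKO pair chose the family. They were 0.87 for miR-103a-3p, -1.71 for miR-103b, -0.02 for the sum and -1.53 for miR-107. With 1 library of each line, no replicate could be left out. Depth limited miR-107, with 3 to 27 counts in a library, and so did the unknown assignment of reads that end before base 22.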
